A study of Rattus norvegicus with 23 samples.

Results

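RNA helicases, splicing factors and translation factors were represented on the arrays by 51 of 5088 probes, which stood for 47 of 4153 named genes. They were selected by gene symbol, as symbols that begin with Ptbp, Ddx, Dhx, Hnrn, Srsf, Khdrbs, Elavl, Celf, Eif, Eef, Pabp, Sf3 or Snrp. By role, 10 probes stood for DEAD-box helicases, 16 for splicing regulators, 4 for core parts of the spliceosome and 21 for translation factors. No probe carried a symbol of the Dhx helicases. Ddx1, Ddx39a, Sf3b1 and Eif5 had 2 probes each, and every other gene had 1.

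Dorsal root ganglia hold the cell bodies of sensory neurons with their satellite glia. The sciatic nerve of Long-Evans rats was transected at postnatal days 20 to 24, the conditioning lesion after which these neurons grow axons more readily, and the L4 and L5 ganglia were removed 4, 8, 12, 18, 24, 48, 148 or 296 h later. Each of 23 two-colour arrays compared RNA from lesioned ganglia, labelled with Cy5, with RNA from intact ganglia, labelled with Cy3. Every time had 3 arrays except 296 h with 2, and replicate 2 of 296 h is given as 294 h in another of its labels. Cultured cells are named as the material in part of the labels, although the treatment text describes surgery on animals. Whether replicates were separate animals, and which animals gave the intact RNA, is not given. The p-values therefore cover the variation among these arrays only, which may be technical.

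An mRNA is spliced by a core machine of snRNPs and the SF3 complex, and regulators such as the PTB, hnRNP, SR and KH domain proteins decide which exons stay in. DEAD-box helicases use ATP to remodel RNA and RNA-protein complexes, from splicing through export to translation. Initiation factors bring the ribosome to the mRNA, and their eIF2 branch is a brake that stress kinases apply. Elongation factors then move the ribosome along. In injured sensory neurons part of this traffic runs in the axon, where stored mRNAs are translated locally after a nerve lesion.

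Values below are log2 ratios of lesioned over intact ganglia, so that 1 is a doubling and -1 a halving. That direction was not stated with the values, was taken from the dyes and is likely rather than certain. Of 10 probes for 9 genes of the injury response, 5 were higher and 2 lower in the mean over the first day in that direction, and late minus early 3 were higher and none lower of 8 tested. Of all probes tested, 11.4% were higher and 12.6% lower over the first day, and 3.65% and 1.33% late minus early. Gal and Npy lay above 0 at 148 h, by 4.96 and 5.36, while Sprr1a and Il6 lay below 0 in the first-day mean (-0.95, adjusted p = 2.15e-07, and -0.22, adjusted p = 0.0449) and at 148 h (-0.37 and -0.65, neither past the threshold). These 4 genes were picked after their values were seen. At 48 h Sprr1a was at -0.36 and Il6 at 0.32, neither past the threshold. The paper reports a large rise of IL-6 mRNA at that time by qPCR, which this probe did not show. The Sprr1a probe came from printing plate 52, by the number that opens its identifier. That plate was among 3 left out in an alternative. No array exchanged the dyes, so a dye preference of a single probe adds to all of its ratios. It cancels in a difference between times if it stayed constant. No intensities were available, so neither expression levels nor signal over background can be given.

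On 17 full arrays 4945 to 5011 probes had a value, 48 to 51 of them members, and the SD of all log2 ratios was 0.506 to 0.913. The other 6 arrays were sparse, with 2063 to 4353 probes, 32 to 48 members and an SD of 1.22 to 1.61. These were replicates 2 and 3 at 48 h, all of 148 h and replicate 2 at 296 h, so late times and sparse arrays overlapped. The fit weighted arrays by their estimated noise, with weights of 0.389 to 3.10 for full and 0.224 to 0.554 for sparse arrays. At 296 h the full and the sparse array got the same weight, 0.389, although their SDs were 0.549 and 1.6. The weights therefore did not separate these arrays. Of the members, 24 probes were measured on all 23 arrays, and 30 came from the printing plates 8 and 9, taking the number that opens a probe identifier as its plate.

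Promoter sequence is shown for genes that the results turn on. Ptbp2 and Eif2s1 were higher at late times, and the elongation factors Eef1a1, Eef1a2 and Eef2 had mean ratios below 0 on the first day. Each run below gives the 150 bases before the annotated start, 5′ to 3′ on the gene's strand, from RefSeq on the rat build GRCr8. Capitals mark matches, searched on both strands, to 6 motifs. These were the cAMP response element TGACGTCA (CRE) and its half-site TGACG. The AP-1 site was searched as TGANTCA. The GC box was searched as GGGCGG and the TATA box as TATAAA. The last was the CCAAT box. A full CRE contains the half-site on both strands. The positions are chr2:210558278-210558427 (minus strand) for Ptbp2 and chr6:103405730-103405879 (plus) for Eif2s1. They are chr8:88225070-88225219 for Eef1a1, chr3:188652634-188652783 for Eef1a2 and chr7:9189239-9189388 for Eef2, all on the minus strand.
Ptbp2: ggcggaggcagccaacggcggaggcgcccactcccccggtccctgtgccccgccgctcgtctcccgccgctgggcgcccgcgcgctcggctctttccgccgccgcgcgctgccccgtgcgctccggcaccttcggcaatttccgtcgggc
Eif2s1: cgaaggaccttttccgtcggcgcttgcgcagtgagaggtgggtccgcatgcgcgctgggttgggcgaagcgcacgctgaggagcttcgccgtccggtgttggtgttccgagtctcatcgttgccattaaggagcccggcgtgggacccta
Eef1a1: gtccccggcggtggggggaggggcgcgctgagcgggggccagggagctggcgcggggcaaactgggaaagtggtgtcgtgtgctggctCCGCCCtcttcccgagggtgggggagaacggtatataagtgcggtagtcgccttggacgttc
Eef1a2: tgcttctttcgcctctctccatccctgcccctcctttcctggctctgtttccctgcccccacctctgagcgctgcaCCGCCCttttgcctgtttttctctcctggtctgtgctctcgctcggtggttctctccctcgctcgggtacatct
Eef2: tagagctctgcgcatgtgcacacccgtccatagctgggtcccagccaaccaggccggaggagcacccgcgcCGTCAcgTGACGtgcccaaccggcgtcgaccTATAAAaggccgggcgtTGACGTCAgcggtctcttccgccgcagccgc

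The Eef2 window held a full CRE, which 1.36% of all 33469 rat promoter windows of that length held, and a TATA box. It was the only one of 41 member genes with a promoter entry to hold the full CRE. Half-sites were found in 14 of the 41 (34.1%, against 13.4% of all windows), GC boxes in 23 (56.1% against 26%) and CCAAT boxes in 16 (39% against 23.5%). A TATA box was found in 2 (4.88% against 8%) and an AP-1 site in none (against 3.69%). The Ptbp2 and Eif2s1 windows held none of the motifs searched. Each member gene gave 1 window, while the windows of all promoters were not reduced to 1 per gene or to genes on the array. The 2 shares are therefore not strictly like for like. A match is a description of the letters only.

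**Figure D1:**
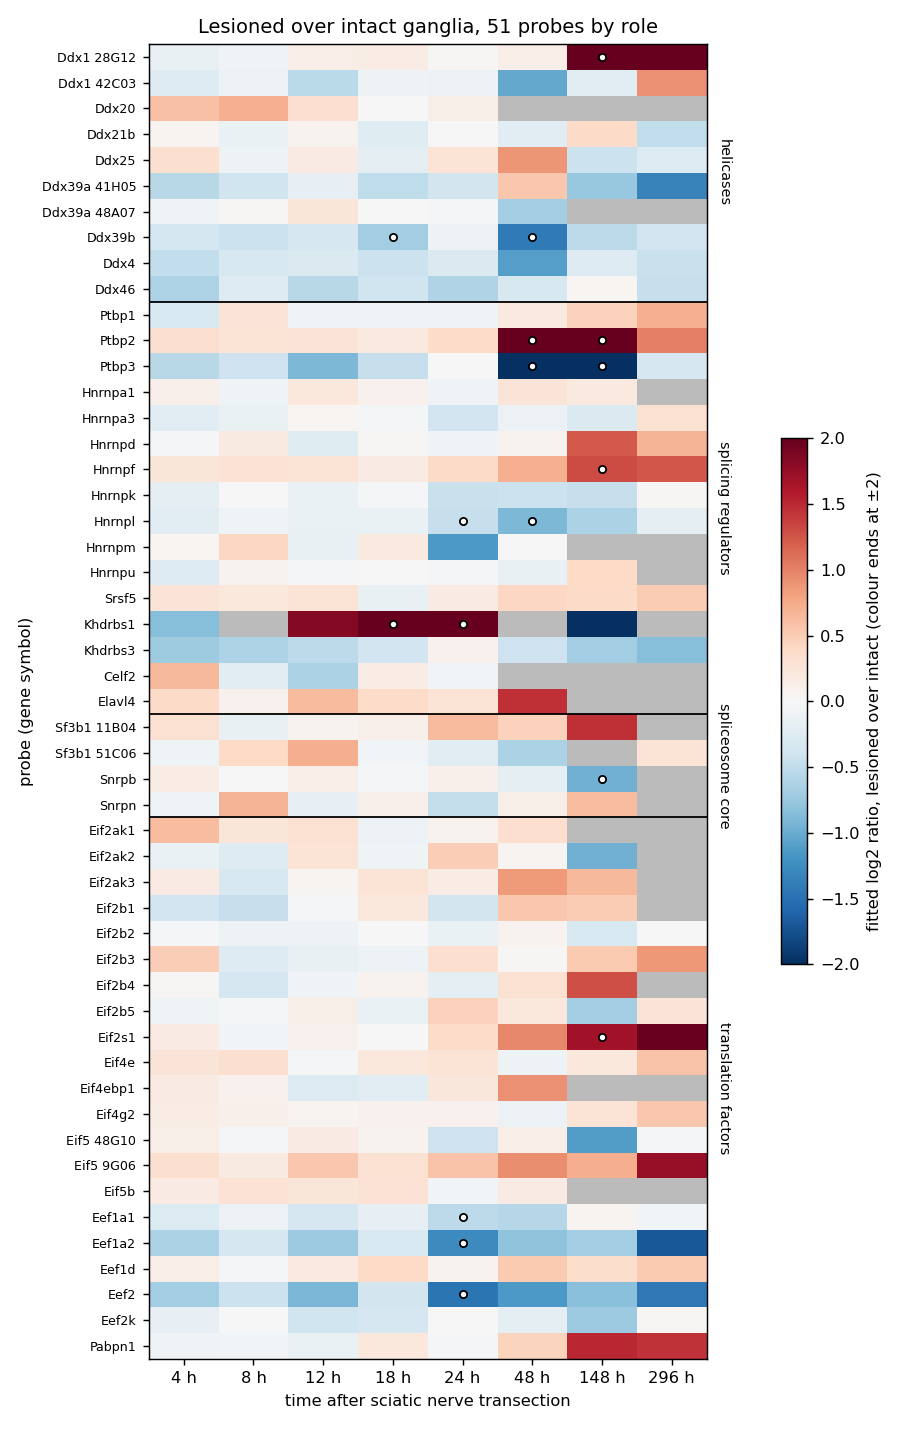
Fitted log2 ratios of lesioned over intact ganglia for the 51 probes (rows, by role) at 8 times after sciatic nerve transection (columns), with red above 0, blue below 0 and grey where fewer than 2 arrays had a value. White dots mark an adjusted p under 0.05. Ptbp2 and Ptbp3 carry dots in opposite directions at 48 and 148 h, Khdrbs1 at 18 and 24 h, and Eef1a1, Eef1a2 and Eef2 at 24 h.

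The mean of 48, 148 and 296 h minus the mean of 4, 8 and 12 h asked whether the response of a gene differed between late and early stages of the lesion. Ptbp2, Eif2s1, Ddx1, Pabpn1 and Hnrnpf were higher and Ptbp3 was lower at the late times. That made 6 of 32 members tested, where 4.98% of all 2331 probes tested passed the adjusted p of 0.05 (3.65% higher and 1.33% lower). The median difference of the members was 0.05, close to the 0.03 of all probes.

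Ptbp2, the neuronal polypyrimidine tract binding protein that holds back a set of neuronal exons, had the clearest time course. Its log2 ratio was between -0.16 and 0.53 on the 15 first-day arrays, with a median of 0.33. At 48 h it was 3.11, 1.28 and 2.44, at 148 h 3.78 and 3.14 on the 2 arrays that measured it, and at 296 h 1.06 and 0.95. All 7 late values lay above all 15 first-day values. The fitted ratio was 4.98-fold at 48 h (log2 2.31 ± 0.32, SE, n = 3, adjusted p = 0.000538) and 11.1-fold at 148 h (3.48 ± 0.42, SE, n = 2, adjusted p = 0.000164). At 296 h the fit gave 1.003 ± 0.45 (SE, n = 2, adjusted p = 0.412).

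Late minus early, Ptbp2 differed by 1.98 ± 0.25 (SE, 95% interval 1.45 to 2.51, adjusted p = 0.000145). Leaving out each of 17 arrays in turn gave 1.83 to 2.14, with adjusted p up to 0.00337. With full arrays only, 48 and 296 h minus 4, 8 and 12 h gave 1.80, with 1 full array at 48 h and 1 at 296 h. With each array centred plate by plate the late minus early difference was 1.74 (adjusted p = 0.000774). With all arrays scaled to equal spread, which shrinks the noisy late arrays, it was 1.17 (adjusted p = 0.0126). Apart from the full arrays, for which no p-value is given, Ptbp2 passed in all these settings.

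Ptbp3, a paralogue first described in blood cells (ROD1), went the other way. It read -5.47, -3.37 and -1.003 at 48 h, -1.12, -3.71 and -3.40 at 148 h, and -0.59 and -0.07 at 296 h. On the first day it ranged from -1.60 to 0.82 with a median of -0.48, so the 296 h arrays lay inside the first-day range. So did 48 h replicate 3 and 148 h replicate 1, while the other arrays at 48 and 148 h lay at or below -3.37. The fit gave -3.90 ± 0.66 at 48 h (SE, n = 3, adjusted p = 0.00255) and -3.07 ± 0.77 at 148 h (n = 3, adjusted p = 0.0187).

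The late minus early difference of Ptbp3 was -1.82 ± 0.50 (adjusted p = 0.0434). Leaving out each of the 17 arrays in turn gave -1.99 to -1.25. The call was lost without any of 11 of them, with adjusted p up to 0.177. It was kept without 4 h replicate 1, 8 h replicate 2, 48 h replicate 3, 148 h replicate 1 or either array at 296 h. Centred plate by plate it was -1.66 (adjusted p = 0.0624), and equal weights gave -1.51 (adjusted p = 0.0582). Arrays scaled to equal spread gave -0.74 (adjusted p = 0.409), and array class as a term -3.05 (adjusted p = 0.352). In the full arrays alone, 48 and 296 h minus early times, the difference was -2.41. It rested on 1 full array at 48 h (-5.47) and 1 at 296 h (-0.59). Without 48 h replicate 1 or 2 the 48 h call was lost, and without 148 h replicate 2 or 3 the 148 h call, with adjusted p up to 0.277 and 0.291.

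Ptbp1, the widely expressed founder of this family, did not pass any of the tests. Its late minus early difference was 0.50 (95% interval -0.01 to 1.01, adjusted p = 0.247), and its values on the 6 late arrays that measured it ran from -0.10 to 1.30. Its fitted values at 48 and 148 h were 0.20 and 0.46, between those of Ptbp3 and Ptbp2. The difference between paralogues was not tested.

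**Figure D2:**
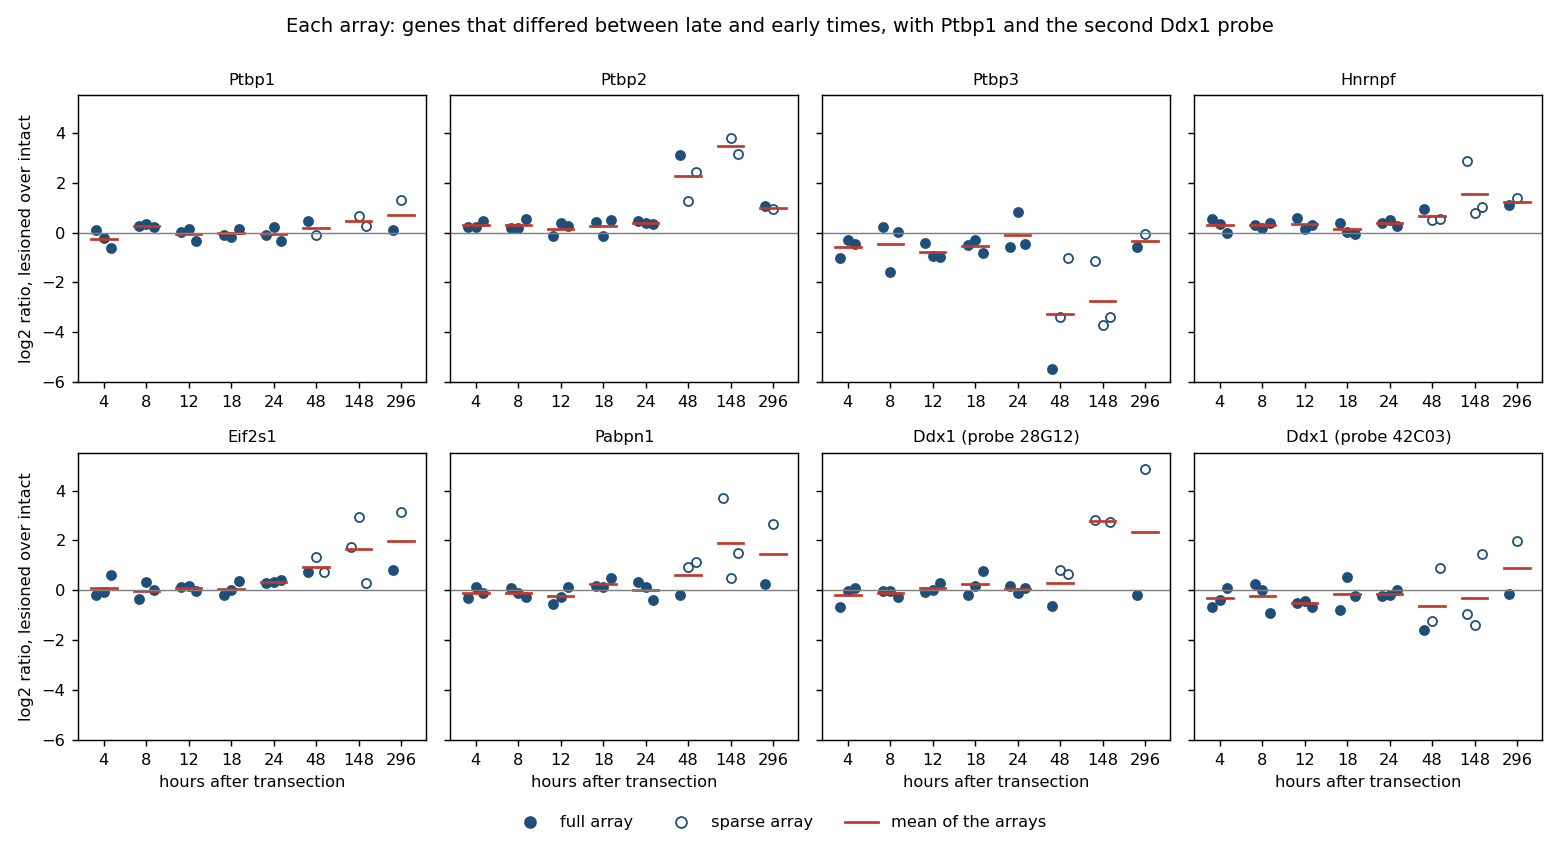
Log2 ratio of lesioned over intact ganglia (y axis) on every array against hours after transection (x axis, evenly spaced), for the 6 genes past the threshold in late minus early, with Ptbp1 and the second Ddx1 probe. Filled points are full arrays, open points sparse arrays and red bars the plain mean of a time. Ptbp2 stands apart from 48 h on, with 3.11 on the full 48 h array, while Ddx1 probe 28G12 is high on sparse arrays and at -0.63 and -0.19 on the full ones at 48 and 296 h.

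Eif2s1 encodes the alpha subunit of eIF2, the subunit that stress kinases phosphorylate to slow initiation. All 8 late arrays lay above 0, at 0.73, 1.34 and 0.75 at 48 h, 1.72, 2.95 and 0.28 at 148 h, and 0.83 and 3.13 at 296 h. The first-day arrays ran from -0.36 to 0.60, so 7 of the 8 late arrays lay above all of them. The late minus early difference was 1.47 ± 0.31 (SE, adjusted p = 0.0109). It passed the threshold without each of the 17 arrays in turn, at 1.09 to 1.86 with adjusted p up to 0.04, and was 1.26 (adjusted p = 0.023) centred plate by plate. In full arrays only, 48 and 296 h minus early, it was 0.71, with 1 full array at 48 h and 1 at 296 h. With array class as a term it was 0.59 (adjusted p = 0.999), and with arrays scaled to equal spread 0.90 (adjusted p = 0.0469). Its 148 h value of 1.68 ± 0.48 (SE, n = 3, adjusted p = 0.0373) lost its call without 148 h replicate 1 or 2 (1.001 at the lowest, adjusted p up to 0.414) and was 1.33 (adjusted p = 0.0971) centred plate by plate.

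The eIF2 kinases phosphorylate this subunit, and eIF2B is the guanine exchange factor of eIF2. Of their probes, Eif2ak1, Eif2ak2, Eif2ak3, Eif2b1 and Eif2b4 could not be tested late minus early. Eif2b2, Eif2b3 and Eif2b5 were tested and did not pass. At 148 h none of the 15 initiation factor and eIF2 kinase probes passed apart from Eif2s1, where 12 could be tested.

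Pabpn1 and Hnrnpf rested more on single arrays. Pabpn1, the nuclear poly(A) binding protein that sets tail length, read -0.20, 0.92 and 1.13 at 48 h, 3.69, 0.48 and 1.49 at 148 h, and 0.24 and 2.64 at 296 h. Its 2 late full arrays were its lowest and its next lowest. The late minus early difference was 1.22 ± 0.33 (SE, adjusted p = 0.0397), against 0.99 (adjusted p = 0.0928) centred plate by plate. In full arrays only, with 1 at 48 h and 1 at 296 h, the difference was 0.11. With array class as a term it was 0.02 (adjusted p = 0.999). Over all 17 arrays left out in turn, the late minus early difference ran from 0.82 to 1.62. Pabpn1 lost the call without any of 9 arrays, with adjusted p up to 0.118. Those were all 4 h arrays, 8 h replicate 2, 12 h replicate 2, 48 h replicates 2 and 3, 148 h replicate 1 and 296 h replicate 2.

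Hnrnpf, whose protein binds G-rich RNA and regulates splicing and 3′ end formation, was above 0 on all 8 late arrays, from 0.51 to 2.88. At 148 h it read 2.88, 0.80 and 1.01 (fitted 1.30 ± 0.32, SE, n = 3, adjusted p = 0.0177), and at 296 h 1.10 and 1.38. First-day arrays ran from -0.06 to 0.58. Late minus early it differed by 0.82 ± 0.21 (adjusted p = 0.0336). In full arrays only, with 1 at 48 h and 1 at 296 h, the difference was 0.76. The call was lost without 4 h replicate 2 or 3, 8 h replicate 2 or 12 h replicate 2 or 3. It was also lost without 48 h replicate 1 or 2, and the adjusted p reached at most 0.0947. Over all 17 arrays left out in turn, the late minus early difference ran from 0.68 to 1.03. Centred plate by plate the difference was 0.57 (adjusted p = 0.156), and with arrays scaled to equal spread 0.42 (adjusted p = 0.218).

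The Ddx1 probes did not give the same picture. Ddx1 is a helicase of RNA transport granules and of the tRNA ligase complex. Probe 28G12 read -0.63, 0.81 and 0.64 at 48 h, 2.81 and 2.73 at 148 h (replicates 1 and 3), and -0.19 and 4.86 at 296 h. Probe 42C03 read -1.61, -1.23 and 0.90 at 48 h, -0.95, -1.41 and 1.45 at 148 h, and -0.15 and 1.97 at 296 h. Late minus early, 28G12 differed by 1.77 ± 0.45 (SE, adjusted p = 0.0336) and 42C03 by 0.19 ± 0.42 (adjusted p = 0.862).

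The sign of probe 28G12 turned on full arrays only, where 48 and 296 h minus early was -0.37, with 1 full array at each of these times. With array class as a term it was -0.34 (adjusted p = 0.999), and the 148 h value, 2.75 ± 0.83 with all arrays (SE, n = 2, adjusted p = 0.0479), became -0.30 (adjusted p = 0.976). Arrays scaled to equal spread gave 0.94 (adjusted p = 0.105), centring plate by plate 1.56 (adjusted p = 0.0585), and the mean of both probes 0.73 (adjusted p = 0.348). The call was lost without 48 h replicate 2, 148 h replicate 1, 148 h replicate 3 or 296 h replicate 2. The adjusted p reached at most 0.0996. Over all arrays left out in turn, the late minus early difference ran from 0.93 to 2.62. On the first day, the 15 arrays gave a mean difference of 28G12 minus 42C03 of 0.29 (SD 0.41, exact sign-flip permutation test over arrays, two-sided p = 0.0154, adjusted over 4 probe pairs 0.0206). On those arrays 28G12 lay between -0.66 and 0.77 and 42C03 between -0.89 and 0.54. The probes lie on plates 28 and 42, with median first-day means of 0.06 and -0.21. Centred plate by plate, the first-day means of 28G12 and 42C03 were -0.02 and -0.04.

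The late times also differed in markers of cell types. In bulk ganglia, fewer cells of a type and less RNA per cell cannot be told apart. Of all probes tested late minus early, 3.65% were higher and 1.33% lower. Both macrophage probes that could be tested late minus early were higher (C1qb 2.12, Lyz2 1.77) of 9 on the array. Sensory neuron probes were lower for 4 of 13 tested (among them Scn10a -0.94, Calca -0.89 and Tac1 -0.86, list median -0.45). Of 10 probes for Schwann cells and satellite glia 1 was lower (Mbp -0.95), and of 5 proliferation probes 1 was higher (Pcna 0.83). None of 7 fibroblast probes, 3 endothelial and 1 muscle probe passed. Their part in the results for Ptbp2, Ptbp3, Eif2s1, Pabpn1, Hnrnpf and Ddx1 was not tested.

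At 4, 8 and 12 h no member passed limma's adjusted threshold. Of all probes 1.85%, 1.26% and 3.61% passed, and 6 of 51, 3 of 50 and 13 of 51 members had an unadjusted p under 0.05. At 18 h 2 of 51 members passed (background 2.07%), at 24 h 5 of 51 (6.19%), at 48 h 4 of 48 (3.96%) and at 148 h 6 of 42 (8.75%). No member passed at 296 h among 33 (0.106%), with 8 at an unadjusted p under 0.05. The one-sample test of each time, with its small numbers of arrays, left none after adjustment.

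Khdrbs1 (Sam68), a KH domain protein that couples signalling to splicing, had the highest fitted ratios of any member on the first day. It was measured on 15 of 23 arrays. At 4 h it read 0.31, -1.78 and -0.78, at 8 h 3.26 on replicate 1 alone, and at 12 h 1.60 and 2.06 on replicates 2 and 3. It read 3.25, 1.57 and 3.52 at 18 h and 3.62, 1.94 and 5.37 at 24 h. No array at 48 h measured it, 148 h replicates 1 and 2 read -0.91 and -3.76, and 296 h replicate 1 read 0.05. All 9 arrays from 8 to 24 h that measured it lay above the 3 arrays at 4 h and the 3 late arrays.

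The fit put Khdrbs1 at 5.93-fold at 18 h (log2 2.57 ± 0.56, SE, n = 3, adjusted p = 0.0416) and 12.9-fold at 24 h (3.69 ± 0.62, n = 3, adjusted p = 0.00712). The arrays at 24 h alone had an SD of 1.71 and an SE of 0.99, wider than the fitted SE, which borrows from all arrays. In the one-sample test of 24 h the adjusted p was 0.462. Without any of the 18 h arrays the 18 h call was lost (2.41 to 3.39, adjusted p up to 0.216), and without 24 h replicate 3 the 24 h call (2.78, adjusted p = 0.0829). With equal weights the 24 h value kept its call (3.64, adjusted p = 0.028) and the 18 h value did not (2.78, adjusted p = 0.186). Because 8 h had 1 array, Khdrbs1 entered neither the first-day mean, the change within the first day nor the late minus early test.

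Khdrbs3, its neuronal relative, did not share this course. It lay below 0 on 12 of 15 first-day arrays, between -1.28 and 0.98, and passed at no single time.

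Ddx39b, a helicase of the mRNA export complex, was lower at 18 h (-0.51, -0.95 and -0.48, fitted -0.70 ± 0.17, SE, n = 3, adjusted p = 0.0344) and at 48 h (-1.05, -1.60 and -1.96, fitted -1.41 ± 0.33, adjusted p = 0.0214). It was below 0 on 20 of 23 arrays. Both calls were lost when any array of that time was left out (adjusted p up to 0.559 and 0.159), and centred plate by plate they were -0.46 (adjusted p = 0.264) and -1.001 (adjusted p = 0.151). Hnrnpl, which binds CA-rich RNA, lay below 0 on 22 of 23 arrays. It read -0.23, -0.31 and -0.74 at 24 h (fitted -0.47 ± 0.13, adjusted p = 0.0382) and -1.14, -0.55 and -0.99 at 48 h (fitted -0.90 ± 0.23, SE, n = 3, adjusted p = 0.0346). The 48 h call was lost without any of its 3 arrays (adjusted p up to 0.357), and centred plate by plate it was -0.46 (adjusted p = 0.383).

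Snrpb, a core snRNP protein, was lower at 148 h on all 3 arrays (-1.09, -0.94 and -0.90, fitted -0.95 ± 0.28, SE, n = 3, adjusted p = 0.0434) and was between -0.30 and 0.35 on the first-day arrays. Each of the 148 h arrays was needed for that call (adjusted p up to 0.213 without it). With array class as a term the value was -0.47 (adjusted p = 0.936). Its relative Snrpn and the splicing factor Sf3b1, the branch site subunit of SF3, did not pass at any time. Both Sf3b1 probes were above 0 on 10 of 15 first-day arrays.

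In the first-day mean Eef1a1 and Eef1a2, the ubiquitous and the neuron and muscle forms of the factor that delivers tRNAs, lay below 0. So did Eef2, the factor that moves the ribosome by a codon. Eef1d, of the exchange complex that recharges eEF1A, and Eef2k, the kinase that inhibits eEF2, did not pass. Such a mean keeps a constant dye preference of a probe, and that and a lesion effect cannot be told apart here. In the differences between times, where a constant preference cancels, no elongation factor passed.

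Eef2 read -1.64, -0.07 and -0.65 at 4 h, -0.08, -0.31 and -1.20 at 8 h and -0.27, -0.66 and -1.37 at 12 h. It read -1.35, 0.28 and 0.17 at 18 h, and -1.49, -1.06 and -1.83 at 24 h. The replicates of a time spread widely before 24 h, and 13 of 15 arrays were below 0. The mean over the 5 first-day times was -0.78 ± 0.16 (SE, n = 15, adjusted p = 0.00156), which is 1.71-fold lower, and the 24 h value was -1.46 ± 0.36 (n = 3, adjusted p = 0.0222).

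Eef1a2 had 14 of 15 first-day arrays below 0, from -1.83 to 0.27 with a median of -0.58. Its first-day mean was -0.66 ± 0.11 (SE, n = 15, adjusted p = 0.000458), and at 24 h it read -1.20, -0.72 and -1.83 (fitted -1.27 ± 0.27, n = 3, adjusted p = 0.00912). Eef1a1 moved less, from -0.97 to 0.01, with a mean of -0.28 ± 0.06 (adjusted p = 0.00395) and a 24 h value of -0.53 ± 0.15 (n = 3, adjusted p = 0.0455). These first-day means passed without each of the 15 arrays in turn, with equal weights and with plate by plate centring, where they were -0.78, -0.66 and -0.29. At 24 h the calls of Eef2 and Eef1a1 were lost without any of the 3 arrays (adjusted p up to 0.255 and 0.584) and that of Eef1a2 without replicate 3 (adjusted p = 0.199).

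The 3 probes varied together from array to array. Over the 15 first-day arrays, all of them full, Eef2 and Eef1a2 had a Pearson r of 0.893 and a Spearman rho of 0.904 (permutation p = 2e-05 for each, adjusted over 3 pairs 6e-05). Without the 2 arrays farthest from the Eef2 median r was 0.866, and after the mean of each time was removed 0.845. Eef2 with Eef1a1 gave an r of 0.698 (rho 0.739, permutation p = 0.00158 and 0.0024) and Eef1a2 with Eef1a1 0.773 (rho 0.646, permutation p = 0.00093 and 0.0113), with 0.539 and 0.569 without 2 arrays. Adjusted over the 3 pairs, the highest of these was 0.0113. These 3 were chosen after they had passed as lower on the same arrays, and no other pair of probes was correlated. Whether the 3 varied together more than other probes of an array or plate was therefore not tested. The 3 probes share plate 9, whose median first-day mean was 0.02. Both arrays on which Eef2 was above 0 on the first day, 18 h replicates 2 and 3, had Eef1a2 at 0.27 and -0.06, its highest values.

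Some markers of cell types also passed the threshold in the first-day mean, where 11.4% of all probes were higher and 12.6% lower. Higher and lower past the threshold were 3 and 2 of 14 sensory neuron probes, 6 and 3 of 13 for Schwann cells and satellite glia, and 1 and 1 of 9 for macrophages. Fibroblasts had 2 and 0 of 8, endothelium 0 and 1 of 6, proliferation 1 and 1 of 6 and skeletal muscle 0 and 1 of 6. Among the markers that were lower, chosen after their values were seen, were the neuronal Uchl1 (-0.44, and -1.23 at 24 h), the muscle creatine kinase Ckm (-0.53, and -0.89 at 24 h) and the glial S100b (-0.39, and -0.77 at 24 h). The S100b probe lies on plate 52, and the lower endothelial and proliferation probes, Tie1 and Ccnd1, on plates 36 and 53. These 3 plates were left out in an alternative. The part of these markers in the values of Eef1a1, Eef1a2 and Eef2 was not tested.

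At later times the group was mixed. Eef2 was -1.48, -1.58 and 0.58 at 48 h, -2.62, -1.34 and 0.63 at 148 h, and -1.06 and -1.82 at 296 h. Replicate 3 at 48 h and at 148 h, both sparse arrays, again stood above 0 for Eef2 and for Eef1a2 (0.56 and 0.13). Late minus early, no elongation factor passed, with Eef2 at -0.46 (95% interval -1.48 to 0.56), Eef1a2 at -0.49 (-1.24 to 0.26) and Eef1a1 at 0.05 (-0.37 to 0.48).

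**Figure D3:**
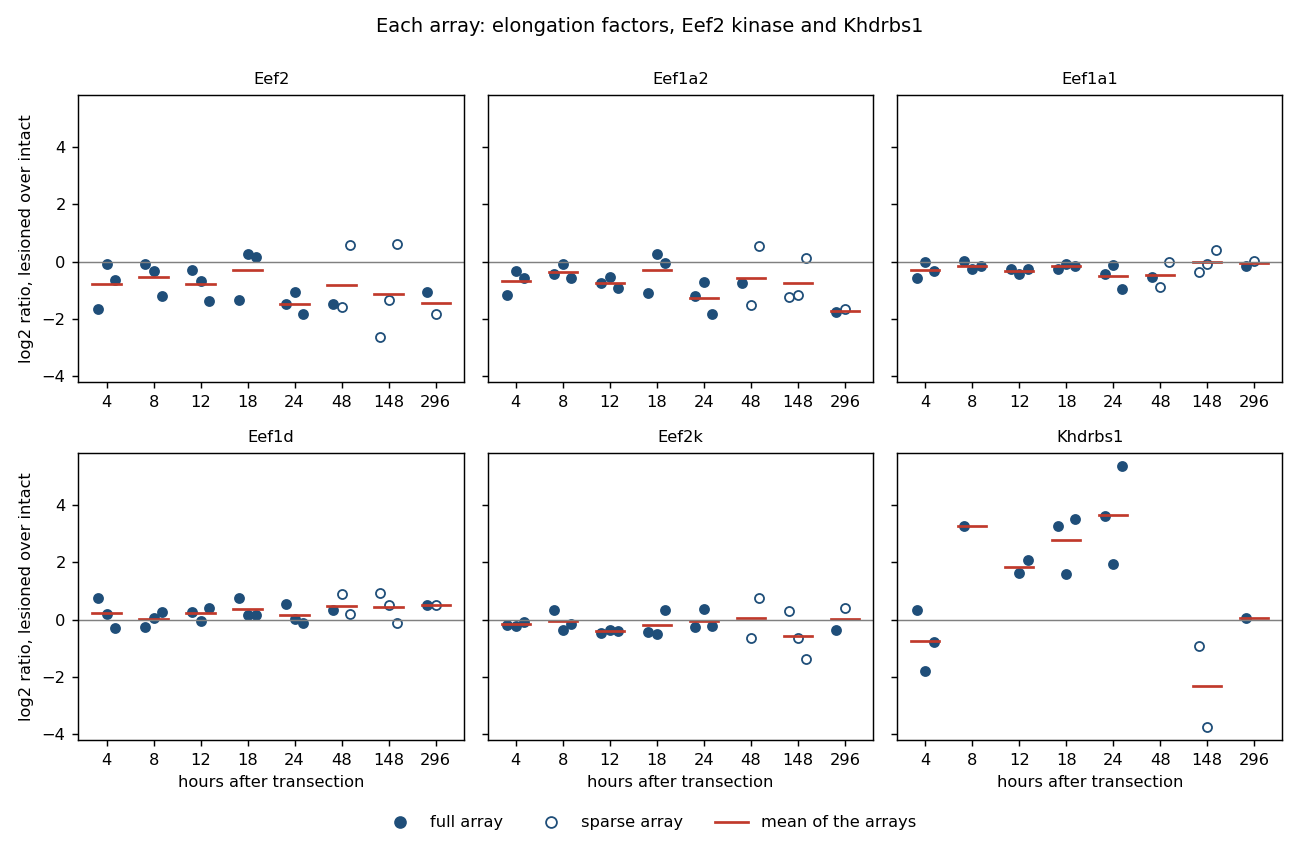
Log2 ratio of lesioned over intact ganglia (y axis) on every array against hours after transection (x axis, evenly spaced) for 5 elongation probes and Khdrbs1. Filled points are full arrays, open points sparse arrays and red bars the plain mean of a time. Eef2, Eef1a2 and Eef2k lie below 0 on 13, 14 and 12 of the 15 first-day arrays, and Eef1d lies above 0 on 11. Khdrbs1 is above 1.5 on all 9 arrays that measured it from 8 to 24 h.

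Averaged over 4 to 24 h, 18 of 50 members tested passed the threshold, 8 higher and 10 lower, against 24% of all 4946 probes tested (11.4% higher and 12.6% lower). A mean over times keeps any constant dye preference of a probe, and that and a lesion effect cannot be told apart here. The median over members was -0.01, and over all probes 0.04. With equal weights 5 of 50 passed (12.4% of all probes), namely Ddx46, Hnrnpl, Eef1a1, Eef1a2 and Eef2.

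Lower first-day members clustered on the array. Beside the 3 elongation factors, 7 members were lower, and all 7 lay on plates 16, 41 and 42. Of the 285 probes tested on those plates 37.9% were lower past the threshold, and the median first-day mean was -0.29 on plate 16, -0.19 on plate 41 and -0.21 on plate 42. The 7 were the helicases Ddx46 (-0.48), Ddx39a on probe 41H05 (-0.40), Ddx39b (-0.38) and Ddx4 (-0.37), with Ptbp3 (-0.47), Khdrbs3 (-0.43) and Hnrnpl (-0.21). With each array centred plate by plate, Ddx46, a helicase of branch site recognition, kept its call (-0.29, adjusted p = 0.0304), and the other 6 lay between -0.27 and -0.02 without passing. Ddx4 is known as a germ cell helicase.

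Higher first-day members were Eif5 on probe 9G06 (0.39 ± 0.10, SE), Ddx20 (0.36 ± 0.09), Elavl4 (0.35 ± 0.10), Ptbp2 (0.28 ± 0.08), Hnrnpf (0.27 ± 0.07), Eif4e (0.21 ± 0.07), Eif5b (0.19 ± 0.06) and Srsf5 (0.15 ± 0.05). Eif4e binds the mRNA cap, Eif5 triggers GTP hydrolysis on eIF2, and Eif5b joins the ribosomal subunits. Elavl4 (HuD) stabilises AU-rich neuronal mRNAs, among them that of Gap43, and was above 0 on 14 of 15 first-day arrays. Ddx20 belongs to the SMN complex that assembles snRNPs, and it ranged from -0.66 to 1.22. Plate by plate, Eif5 (0.38, adjusted p = 0.00935) and Eif4e (0.21, adjusted p = 0.0411) kept their calls and the other 6 did not. In that setting 8 of 50 members passed, against 18.2% of all probes, and Hnrnpa3 (-0.22) and Hnrnpk (-0.24), named here after their values were seen, passed as lower. Late minus early, 3.9% of all probes passed under that centring.

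Of the 18 first-day calls, 8 were lost without some single array. Eif5b and Srsf5 lost theirs without any of 11 and 9 of the 15 arrays (adjusted p up to 0.187 and 0.112), and Ptbp3 without any of 11 (up to 0.119). Ddx20 lost its call without 24 h replicate 2 or 3, Ptbp2 without 12 h replicate 2 or 3, and Khdrbs3 without these 12 h arrays or 8 h replicate 3. Elavl4 lost its call without the same 12 h arrays, 4 h replicate 3 or 18 h replicate 2. Eif4e lost its call without 4 h replicate 1, 8 h replicate 3, 18 h replicate 1 or 24 h replicate 1 or 3. The adjusted p of these 5 reached at most 0.0958. The calls of Ddx39a, Ddx39b, Ddx4, Ddx46, Hnrnpf, Hnrnpl and Eif5, like those of the 3 elongation factors, were kept throughout.

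**Figure D4:**
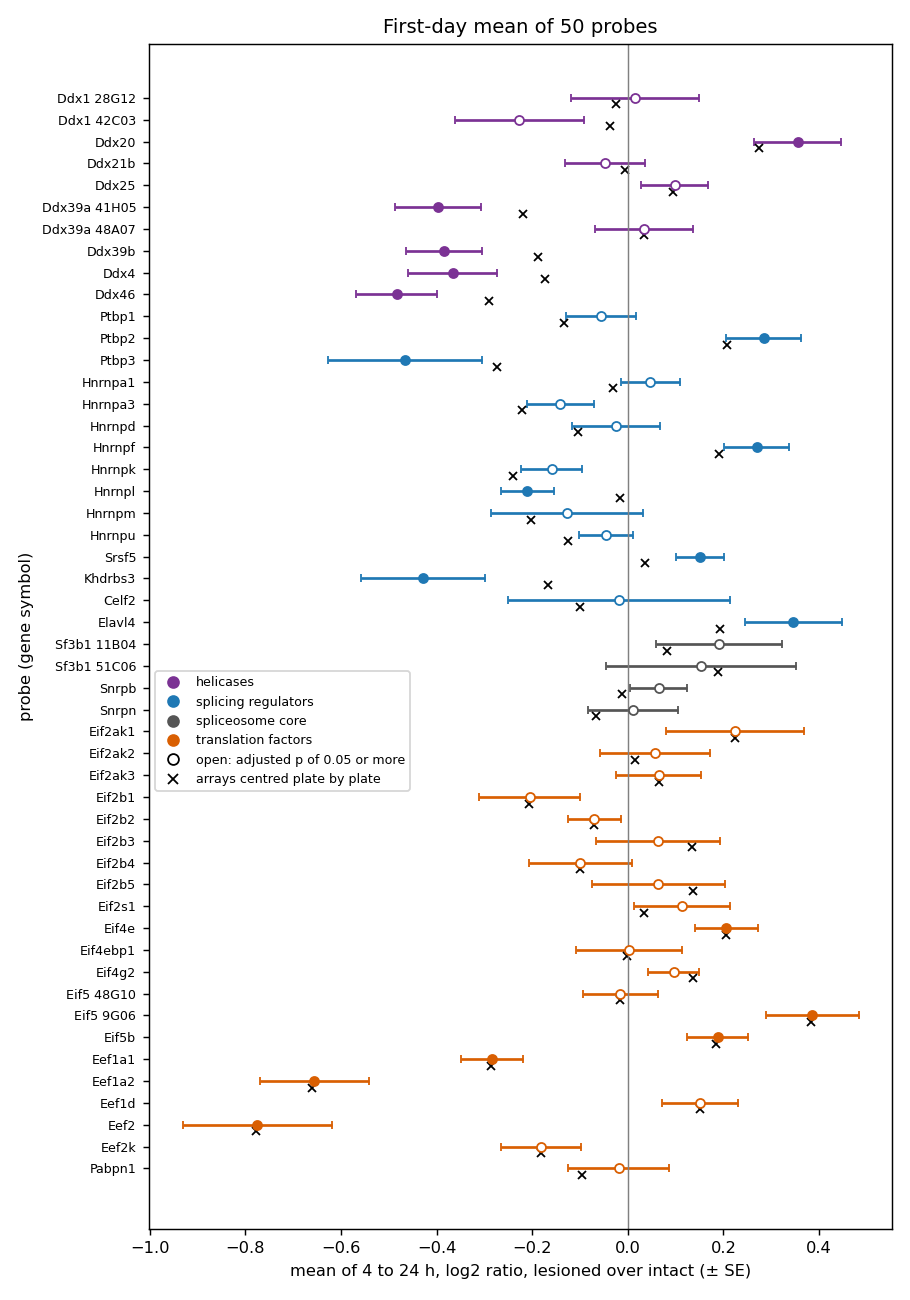
Mean log2 ratio of lesioned over intact ganglia over 4 to 24 h (x axis) for the 50 probes tested (y axis, in order of role), as coloured points with SE. Filled points passed an adjusted p of 0.05, and crosses give the value after each array was centred plate by plate. Eef2 (-0.78) and Eef1a2 (-0.66) lie farthest below 0 and keep their place under that centring, while Ddx39b, Ddx4 and Hnrnpl move towards 0.

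For some genes, probes from different plates differed on the first day. For Ddx39a, which like Ddx39b serves mRNA export, probe 41H05 had all 15 first-day arrays below 0 (-1.28 to -0.02), while probe 48A07 ranged from -0.68 to 0.88 with a first-day mean of 0.03. The mean difference was -0.54 (SD 0.55, n = 15, exact sign-flip permutation test, two-sided p = 0.00153, adjusted 0.0061). Centred plate by plate, the first-day means were -0.22 on 41H05 and 0.03 on 48A07, and that difference was not tested. At 48 h the same probes had opposite signs, 0.71, 0.50 and 0.20 on 41H05 and -0.74 and -0.62 on 48A07, replicates 1 and 2. For Eif5, probe 9G06 exceeded probe 48G10 by 0.44 (SD 0.58, exact permutation p = 0.00714, adjusted 0.0143) and was higher on 13 of 15 arrays. Centred plate by plate, the first-day means of these Eif5 probes were 0.38 and -0.02. For Sf3b1 the probes differed by -0.20 (SD 1.35, exact permutation p = 0.764), with an SD far wider than the difference. Celf2, the one CELF family member, had a first-day mean of -0.02 and 1 array at -4.35, 12 h replicate 1, with the other 14 between -0.95 and 1.21.

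The mean of 18 and 24 h minus the mean of 4 and 8 h asked for a change that a constant dye preference cannot produce. No member of 50 passed limma's threshold, 0.162% of all 4949 probes passed, and 2 members had an unadjusted p under 0.05. Khdrbs1 was not among the 50, because 1 array measured it at 8 h. Its fitted ratio was -0.86 at 4 h and 3.69 at 24 h. The 50 members tested ranged from -0.70 to 0.51, with a median of -0.02, and the median of all probes was also -0.02. For Eef2 the change was -0.35 (95% interval -1.11 to 0.41), for Eef1a2 -0.30 (-0.85 to 0.25) and for Ptbp2 -0.01 (-0.39 to 0.37).

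Of 15 initiation factor and eIF2 kinase probes 13 had a fitted value above 0 at 48 h (median 0.21), and 1 of 5 elongation probes did (median -0.56), beside 50.4% of all probes. None of these 20 probes passed at 48 h, and the initiation count was 6 of 15 at 8 h (median -0.04) and 9 of 15 at 12 h. The difference between these groups was not tested. Helicases had 3 of 9 above 0 at 48 h and 3 of 8 at 148 h, splicing regulators 8 of 14 and 7 of 13. Over the first day 4 of 10 helicases, 5 of 15 splicing regulators, 4 of 4 spliceosome probes and 12 of 21 translation factors were above 0, against 55.9% of all probes.

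Neighbouring genes of the same pathways were read from lists. Of 11 other splicing factors and RNA-binding proteins 5 could be tested late minus early, and Tra2b, a splicing activator, was higher (0.97 ± 0.20, SE, adjusted p = 0.0109). Of 9 probes for mRNA transport, decay and local translation, 1 was higher in the first-day mean, Zfp36, which marks AU-rich mRNAs for decay (0.54 ± 0.09, adjusted p = 0.000477). None of 5 passed late minus early.

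Among 17 probes for translation control 6 were higher and none lower in the first-day mean, where 11.4% of all probes were higher and 12.6% lower. They were led by Rps6kb1 on probe 52F12 (2.31), Atf4 on probe 52H08 (0.48) and Trib3 (0.40), and the other 3 lay between 0.17 and 0.27. Rps6kb1 encodes an S6 kinase, and Atf4 and Trib3 belong to the stress response downstream of eIF2. Both of these Rps6kb1 and Atf4 probes lie on plate 52, which was among 3 plates left out in an alternative. The second probes of Rps6kb1 and Atf4 read -0.07 and -0.14 and did not pass. None of 12 passed late minus early. No aminoacyl-tRNA synthetase probe of 3 passed in the first-day mean.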

How the data were processed

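The authors deposited linear ratios of the 2 channels, 1 per probe and array, from spotted oligonucleotide arrays with dendrimer labelling. Scanner software, background correction and normalization are not given in the sources used here. The ratio values were converted to log2 without an offset. Gene symbols came from the platform annotation (4423 probes with 1 symbol, 2 with several, 663 with none), and 48 of 51 members matched the reference table by identifier. The members and lists were chosen with earlier results of these data known.

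A mean per time was fitted over all 23 arrays with limma 3.58.1 in R 4.3.3, with array weights estimated from the data, and was tested on simulated data. A time was tested where at least 2 arrays had a value. Tests were two-sided with Benjamini-Hochberg adjustment over all probes tested and a threshold of 0.05. SE values come from the moderated fit. Differences between 2 probes of a gene used exact sign-flip tests, and the correlations of elongation factors used 100000-draw permutation tests. Arrays that lacked more than 200 probes were called sparse. Named were Ptbp2, Ddx1 and Khdrbs1, members past the threshold in late minus early, the first-day mean or the first-day change, up to 3 per direction at each time, genes with 2 probes, 1 member of any family left, and up to 3 genes per other list. Alternatives changed weights, centring, scaling, arrays, missing-value filter, replicate block, array class, plates and the joining of probes. Centring by plate and late full arrays only were added after seeing the data.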

Additional observations from a re-analysis of the deposited data

Results flagged for a closer look

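The ratio of lesioned over intact ganglia differed between late and early times for 6 members, by the test of that difference itself. Late minus early, the log2 difference was 1.98 for Ptbp2, 1.77 for Ddx1 on probe 28G12, 1.47 for Eif2s1, 1.22 for Pabpn1, 0.82 for Hnrnpf and -1.82 for Ptbp3. All 17 arrays at those times entered for Eif2s1, Pabpn1, Hnrnpf and Ptbp3, and 16 for Ptbp2 and Ddx1. Every array at 148 h was sparse. With array class as a term the difference was 2.54 for Ptbp2 (adjusted p = 0.0121), -3.05 for Ptbp3 (0.352), 0.88 for Hnrnpf (0.966), 0.59 for Eif2s1 (0.999), 0.02 for Pabpn1 (0.999) and -0.34 for Ddx1 (0.999), so Ptbp2 alone passed in that setting.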

How the results depend on the processing

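Counts of members past the threshold depended on the array weights. With equal weights 0 instead of 2 passed at 18 h and 1 instead of 5 at 24 h. The same weights passed 8 instead of 4 at 48 h, 12 instead of 6 at 148 h, 7 instead of 0 at 296 h and 5 instead of 18 in the first-day mean. Centring plate by plate, chosen after seeing the data, left 1 member at 18 h, 3 members at 24 h, 2 members at 48 h, 3 members at 148 h, 8 in the first-day mean and 2 late minus early, which were Ptbp2 and Eif2s1. Arrays scaled to equal spread left 2 instead of 6 late minus early, again Ptbp2 and Eif2s1. Full arrays only gave 1 member at 12 h, 0 members at 18 h and 3 members at 24 h, and no value at 148 h or late minus early, since 148 h has no full array. Full arrays with 48 and 296 h minus 4, 8 and 12 h, also chosen after seeing the data, had 1 array at 48 h and 1 at 296 h. The members tested there ran from -2.41 (Ptbp3) to 1.80 (Ptbp2). Array class as a term gave 1 member at 12 h, 2 members at 48 h, 1 member at 148 h and 1 late minus early (Ptbp2). The one-sample test of each time gave 0 at 18, 24, 48 and 148 h.

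The replicate numbers did not pair the arrays. Over 77 pairs of arrays with the same number at different times, deviations correlated between -0.141 and 0.117, 4 of them over 0.1, and 7 of 23 arrays were closest on average to their own number. With the replicate number as a block 2 members passed at 12 h, 3 at 24 h and 4 late minus early. Leaving out 1 array gave 0 to 0 at 18 h, 0 to 2 at 24 h, 1 to 2 at 48 h, 2 to 4 at 148 h, 0 to 10 at 296 h, 12 to 18 in the first-day mean and 2 to 9 late minus early. The 10 at 296 h were counted on the single sparse array left there, taken to vary like the other groups. Late minus early dropped to 3 without 4 h replicate 2, 4 h replicate 3 or 12 h replicate 2, and to 2 without 48 h replicate 2, and was 9 without 296 h replicate 1. The sign of Ddx1 on probe 28G12 turned for 3 values in 2 settings: late minus early and 148 h with array class as a term (-0.34 and -0.30), and late full arrays (-0.37). No other of the 39 named values changed sign. Without intensities, signal over background cannot be weighed, and precision is set by how many arrays each time has.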
